A study of Danio rerio with 2 samples.

Results

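Translation initiation and elongation factors are the proteins that load messenger RNA and initiator tRNA onto the ribosome and then drive each round of peptide synthesis. Members were all genes whose current zebrafish symbol begins with eif or eef followed by a digit, together with pabpc1a, tpt1, naca and btf3. Genes were taken by symbol, and the rule was set with earlier results of these data known. Of 90 such symbols in the RefSeq annotation used for names, 68 were found in the tables, among 17963 genes in all. Those 17963 include 8528 deposited transcripts with no symbol, each counted as a gene. The background of all genes used below therefore holds transcripts without a symbol, while every factor gene has one. The other 22 symbols were not analysed here, so sums by factor cover matched genes only. Those 22 include naca, eef1a1l3, eef1a2, eef1da, eef1db, eef1e1, eif3ba, eif3bb, eif3eb, eif3f and eif3ja. Of the 68, 67 had a tag in at least 1 library, 64 had at least 10 tags over both libraries, and eif2b1 had none.

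The study asked which liver genes differ after arsenic exposure. Wild-type sibling zebrafish, 3 months old, received sodium arsenate for 96 h in tanks of several liters, with the water renewed daily and each tank holding a group of adults, and controls received water. Livers of each group gave 1 library of 3' SAGE tags, short sequences counted near the 3' end of each transcript, so 2 libraries were compared and no difference below has a replicate check. The labels give neither the number of fish behind a library nor their sex, nor whether livers were pooled. The arsenate library held 4420935 tags and the water library 2592679. Levels are in RPM, the tags of a gene scaled to the same total in both libraries. A transcript is counted by its 3' tags whatever its length, so levels carry no length correction. The sources used here do not give the tag mapping, so comparisons of level between genes depend on an unknown assignment of tags. A single tag equals 0.226 RPM with arsenate and 0.386 RPM with water. Ratios are arsenate over water, and the range in brackets is an exact 95% interval that covers counting error of independent tags only.

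Initiation starts when eIF2, carrying GTP and initiator tRNA, joins the small ribosomal subunit with eIF1, eIF1A, eIF3 and eIF5. The eIF4F complex, built from the cap-binding protein eIF4E, the scaffold eIF4G and the helicase eIF4A, brings the mRNA. Elongation then uses eEF1A to deliver aminoacyl-tRNA, eEF1B to recharge eEF1A with GTP, and eEF2 to move the ribosome along. Liver makes most plasma proteins and has a high demand for this machinery. Stress can lower initiation through kinases that phosphorylate eIF2 and so block its exchange factor eIF2B, and in mammalian cells the heme-regulated kinase EIF2AK1 is known to respond to arsenite.

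As a whole, the factor genes held a similar share of both libraries, at 26400 RPM with arsenate and 26888 RPM with water. Without eef1a1l2 the sum was 22836 versus 26011 RPM, a ratio of 0.878 (0.869 to 0.887). That sum keeps its paralog eef1a1l1, which differed the other way, at 5381 versus 9119 RPM. Tags of these 2 genes may be shared, and sums without eef1a1l1 or without both were not computed. Within the sum of all factor genes the factors differed from one another. The ratio of summed RPM was 1.88 for eIF5A and 1.80 for eIF2B, and 0.586 for eIF3, 0.620 for eIF2 and 0.582 for eEF2, and the 2 abundant eEF1A genes differed in opposite directions. A gene was called higher or lower at a 2-fold ratio of RPM + 1, a scale that understates the change of low genes. By that rule 6 of the 64 genes with at least 10 tags were higher, 12 were lower and 46 were neither. Over all 7839 genes with at least 10 tags, 15.6% were higher and 14.4% lower. The 9.38% of factor genes higher was below this background and the 18.8% lower was above it, and neither difference was tested. The median log2 ratio was -0.32 for the factor genes and 0.03 for all genes. A ratio below 1 was found for 39 of the 64 genes, or 60.9%, against 48.0% of all genes, and for 34 of the 64, or 53.1%, when the 10 most abundant genes were left out of the totals, against 39.5% of all genes. That scaling, with the top genes of both libraries left out, raised every log2 ratio by 0.22. The counts became 11 of 64 higher and 9 of 64 lower, against 1680 and 975 of all 7839 genes. The share of factor genes lower then stood closer to that of all genes.

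**Figure D1:**
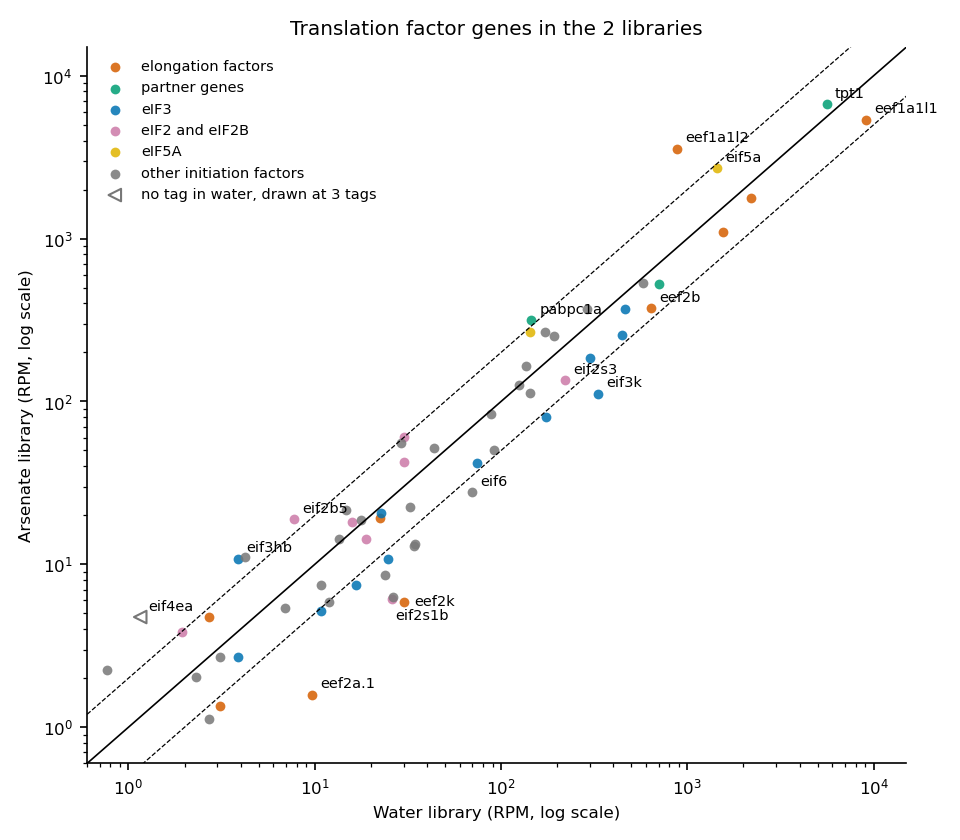
Level of each factor gene with at least 10 tags in the water library (horizontal, RPM, log scale) and the arsenate library (vertical, RPM, log scale), coloured by role, with modifying enzymes counted under elongation. Each point is 1 gene, the solid line marks equal levels and the dashed lines a 2-fold difference. Most points lie between the dashed lines, eef1a1l2 lies above them at 3564 versus 877 RPM, and eif4ea, with no water tag, is drawn at 3 tags.

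The 12 genes lower were mostly of low level. In 9 of the 12, and in 4 of the 6 genes higher, neither library held more than 100 tags. Among the 20 factor genes with over 1000 tags over both libraries, where counting error is smallest, eef1a1l2 and pabpc1a were higher and eif3k was lower. For all 573 genes at that level the background was 16.9% higher and 21.6% lower. The share of factor genes lower, 1 of 20, was thus below the background here, while over all 64 it was above. Over these abundant genes the median log2 ratio was -0.21 for the factors and -0.09 for all.

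Other tissues differed between the libraries. Of 21 exocrine pancreas markers with at least 10 tags, 20 were lower by the 2-fold rule, and the list summed to 3358 versus 39354 RPM. All 6 testis markers at that level were lower too, with a sum of 2.04 versus 336 RPM. Markers with no tag with arsenate alone were cela1.5 of the pancreas and ddx4 and piwil1 of the testis, and ctrb.2 had none in either library. Hepatocyte markers were present in both libraries, at 54633 RPM and 135180 RPM in sum, with 3 of 9 lower, none higher and 7 with a ratio below 1. Most of the difference in that sum was from fabp10a, the liver fatty acid carrier gene, at 23450 versus 96575 RPM. The others lower were hpda, with a ratio of 0.430, and rbp4, with 1 tag against 11, and fgg, a clotting gene, stood at 13615 versus 7653 RPM. When pancreas and testis markers were left out of the library totals, the factor genes again gave 6 higher and 12 lower. The part that RNA of the other tissues, which also make translation factors, had in these ratios was not tested, and fewer cells of a type cannot be told apart from less RNA per cell.

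**Figure D2:**
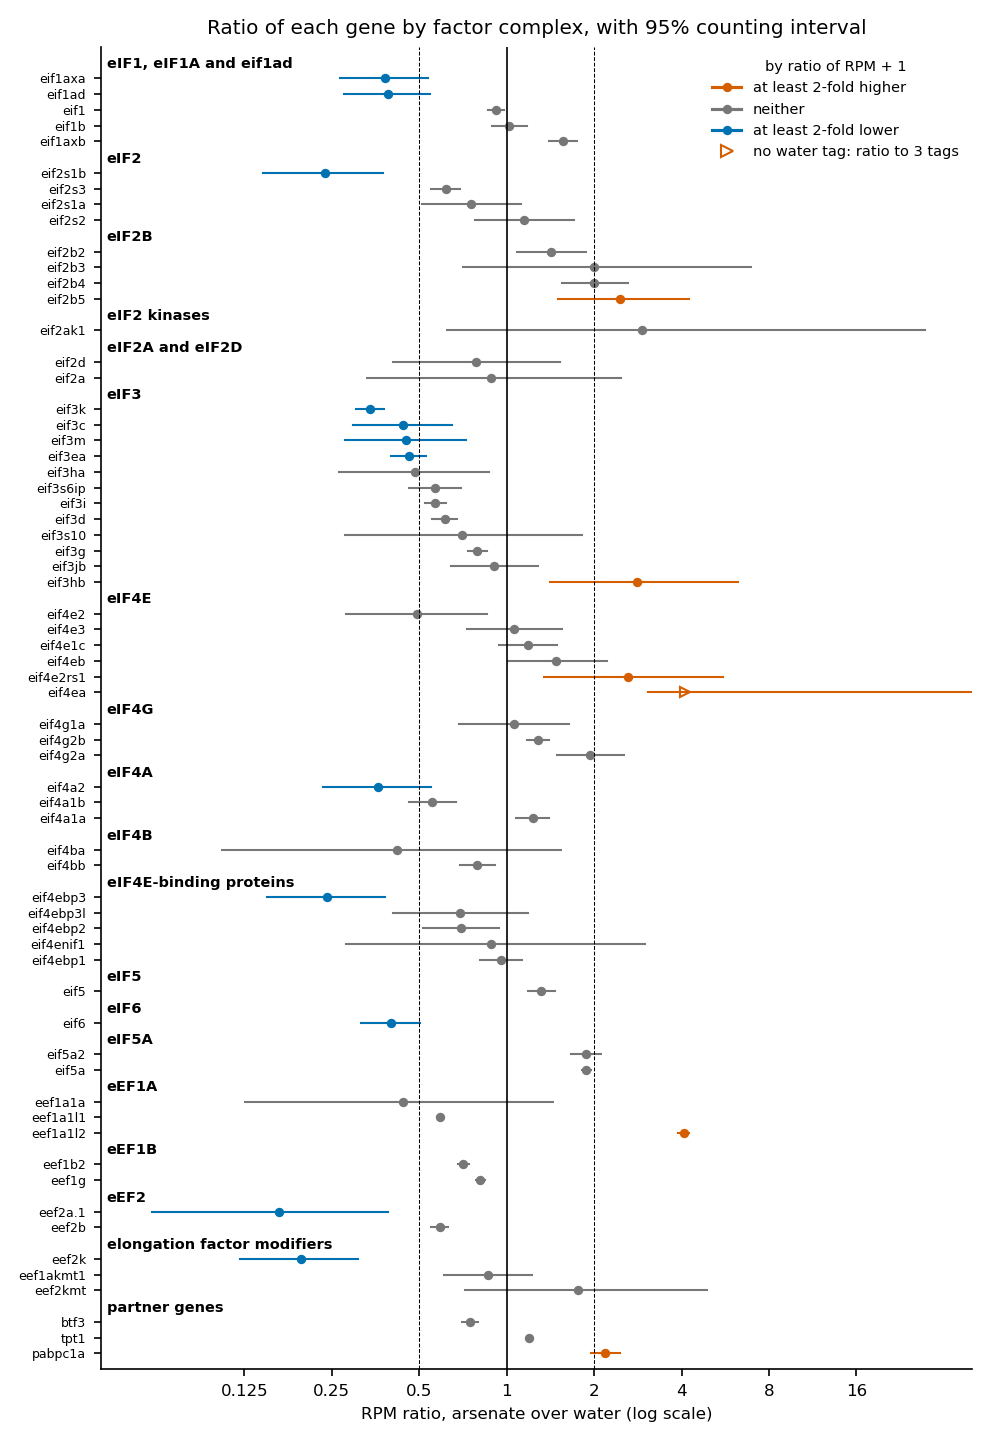
RPM ratio of arsenate over water for the 64 factor genes with at least 10 tags, grouped by factor (log scale). Points are ratios, lines are 95% counting intervals, dashed lines mark 2-fold, and the triangle of eif4ea stands at its ratio to 3 water tags. The eIF3 genes except eif3hb lie left of 1 and all 4 eIF2B genes lie right of it.

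Of the eIF2 heterotrimer, 1 of 4 genes was lower and 3 were neither, and of its exchange factor eIF2B, 1 of 4 was higher and 3 were neither. Over all genes with at least 10 tags, 14.4% were lower and 15.6% higher. The 4 eIF2 genes summed to 174 RPM with arsenate and 281 RPM with water, a ratio of 0.620 (0.560 to 0.687). The gamma subunit gene eif2s3, which binds GTP and initiator tRNA, held most of that, at 136 versus 220 RPM, a ratio of 0.616 (0.549 to 0.692). For the alpha subunit, whose phosphorylation is the switch of the stress response, the 2 paralogs differed. The eif2s1b gene stood at 6.11 versus 25.8 RPM, 4.23-fold lower (2.67 to 6.88), while eif2s1a stood at 14.3 versus 18.9 RPM, with a ratio of 0.754 (0.511 to 1.12) whose interval includes 1. Together the alpha genes were at 20.4 versus 44.7 RPM, 2.198-fold lower (1.65 to 2.93). The beta subunit gene eif2s2 had 18.1 versus 15.8 RPM, and its interval of 0.776 to 1.71 also includes 1.

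All 4 eIF2B genes with tags had a ratio above 1, under every scaling. Of all genes with at least 10 tags, 52.0% were above 1 by library total, and 60.5% without the 10 most abundant genes. Their sum was 126 RPM with arsenate and 69.8 RPM with water, a ratio of 1.80 (1.52 to 2.14). The catalytic epsilon subunit gene eif2b5 passed the 2-fold rule, with 84 tags against 20, or 19.0 versus 7.71 RPM, 2.46-fold higher (1.499 to 4.24). The delta subunit gene eif2b4 stood at 60.2 versus 30.1 RPM, a ratio of 2.0 (1.55 to 2.61) that missed the rule on the RPM + 1 scale and passed it with TMM scaling, with median-of-ratios scaling and without the 10 most abundant genes. The beta subunit gene eif2b2 stood at 42.8 versus 30.1 RPM, 1.42-fold higher (1.09 to 1.87), and eif2b3, the gamma subunit gene, had 17 tags against 5, with an interval of 0.706 to 6.91 that includes 1.

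Among the kinases that phosphorylate eIF2, only eif2ak1 was matched in the tables. It had 10 tags with arsenate and 2 with water, a ratio of 2.93 with an interval of 0.625 to 27.5, so no difference was detectable at this depth. The genes eif2a and eif2d, whose products can deliver initiator tRNA without eIF2, had 12 tags against 8 and 24 against 18, and both intervals include 1.

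eIF3, the large scaffold that holds the small ribosomal subunit open for the mRNA, had 4 of 12 genes lower, 1 higher and 7 neither. The background over all genes was 14.4% lower and 15.6% higher. The 12 eIF3 genes summed to 1098 RPM with arsenate and 1876 RPM with water, 1.71-fold lower (1.64 to 1.78). The ratio was below 1 for 11 of the 12, against 48.0% of all genes with at least 10 tags. When scaled without the 10 most abundant genes it was below 1 for 10 of the 12, against 39.5% of all genes. The 3 subunit genes with the most tags were within 2-fold. The mRNA-path subunit gene eif3g stood at 367 versus 464 RPM, a ratio of 0.792 (0.735 to 0.854), and eif3i, of the same peripheral module, at 254 versus 449 RPM, a ratio of 0.567 (0.522 to 0.616). The gene eif3d, for a subunit known in mammals to contact the cap, was at 185 versus 302 RPM, a ratio of 0.613 (0.555 to 0.677).

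Without the 10 most abundant genes in the totals, 1 of the 12 eIF3 genes was lower, against 975 of all 7839 genes. The eif3k gene, for a subunit at the edge of the core, had 494 tags against 856, or 112 versus 330 RPM, 2.95-fold lower (2.64 to 3.31). The eif3ea gene stood at 80.3 versus 175 RPM, 2.18-fold lower (1.89 to 2.51), eif3c at 10.9 versus 24.7 RPM, 2.27-fold lower (1.54 to 3.38), and eif3m at 7.46 versus 16.6 RPM, 2.22-fold lower (1.38 to 3.61). These 3 no longer passed the rule without the 10 most abundant genes, and eif3m did not with TMM scaling. The paralogs of subunit h pointed in opposite directions. The eif3hb gene had 48 tags against 10, 2.81-fold higher (1.41 to 6.24), and eif3ha 23 tags against 28, a ratio of 0.482 (0.265 to 0.867). Their sum was 16.1 versus 14.7 RPM, with an interval of 0.729 to 1.67. The other members, eif3s6ip (subunit l), eif3s10 (subunit a) and eif3jb, a loosely bound subunit, had ratios of 0.565, 0.704 and 0.905.

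eIF1 and eIF1A guard the choice of the start codon. The eIF1 genes were close to level, with eif1 at 535 versus 581 RPM and eif1b at 127 versus 125 RPM, and the side of 1 on which either fell depended on the scaling. The eIF1A paralogs were not level. The major gene eif1axb stood at 269 versus 172 RPM, a ratio of 1.56 (1.4 to 1.75), and the minor gene eif1axa at 12.9 versus 33.9 RPM, 2.63-fold lower (1.87 to 3.74). The related gene eif1ad, which carries an eIF1A-type domain, had 13.3 versus 34.3 RPM, 2.57-fold lower (1.83 to 3.64).

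Of the 12 genes for the eIF4G, eIF4E and eIF4A families, 2 were higher, both of the eIF4E family, 1 was lower, an eIF4A gene, and the others were neither. The background over all genes was 15.6% higher and 14.4% lower. The eIF4G family genes summed to 442 versus 332 RPM, a ratio of 1.33 (1.23 to 1.44). That sum was led by eif4g2b at 372 versus 290 RPM and eif4g2a at 55.9 versus 28.9 RPM, a ratio of 1.93 (1.49 to 2.54) that passed the 2-fold rule with TMM scaling and without the 10 most abundant genes. Both encode an eIF4G relative known in mammals to work without eIF4E. The canonical scaffold gene eif4g1a had 14.3 versus 13.5 RPM, and its interval of 0.688 to 1.64 includes 1. The family genes eif4g1b, eif4g3a and eif4g3b were not matched, so the sum leaves them out.

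The 6 genes of the eIF4E family summed to 114 versus 92.2 RPM, a ratio of 1.23 (1.06 to 1.45). The most abundant, eif4e1c, stood at 51.6 versus 43.6 RPM, and eif4eb at 21.7 versus 14.7 RPM, a ratio of 1.48 (1.01 to 2.22). The eif4ea gene had 21 tags with arsenate and was blank in the water library, at least 4.11-fold higher against a limit of 3 water tags, while its exact interval begins at 3.05. The eif4e2rs1 gene, a relative of eif4e2, had 49 tags against 11, 2.61-fold higher (1.34 to 5.57). The eif4e2 gene, for a cap-binding protein that represses translation, pointed the other way, with 26 tags against 31 and a ratio of 0.492 (0.281 to 0.856).

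The helicase genes eif4a1a, eif4a1b and eif4a2 summed to 226 versus 251 RPM, a ratio of 0.900 that became 1.04 without the 10 most abundant genes. Within that sum the main gene eif4a1a was at 166 versus 135 RPM, a ratio of 1.23 (1.08 to 1.399), while eif4a1b was at 50.7 versus 91.4 RPM, a ratio of 0.554 (0.460 to 0.668), and eif4a2 at 8.60 versus 23.9 RPM, 2.78-fold lower (1.83 to 4.28). The helicase cofactor gene eif4bb had 113 versus 143 RPM, a ratio of 0.792 (0.691 to 0.908), and its paralog eif4ba 5 tags against 7.

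The eIF4E-binding proteins hold eIF4E away from eIF4G until mTOR phosphorylates them. All 5 genes of this group had a ratio below 1 by library total, against 48.0% of all genes with at least 10 tags. They include eif4enif1, which carries eIF4E into the nucleus, and the ratios of eif4enif1 and eif4ebp1 crossed 1 under another scaling. The main gene eif4ebp1 stood at 83.9 versus 87.9 RPM, a ratio of 0.954 (0.807 to 1.13), and eif4ebp2 at 22.6 versus 32.4 RPM, a ratio of 0.698 (0.517 to 0.945). The eif4ebp3 gene was at 6.33 versus 26.2 RPM, 4.14-fold lower (2.63 to 6.68), and its paralog eif4ebp3l had 33 tags against 28, with an interval of 0.405 to 1.19.

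Factors that act at subunit joining and beyond differed from one another. The gene eif5, for the protein that triggers GTP hydrolysis by eIF2, stood at 253 versus 192 RPM, a ratio of 1.32 (1.18 to 1.47). The gene eif6, whose product keeps the large subunit from joining too early and works in its assembly, stood at 27.8 versus 69.8 RPM, 2.51-fold lower (1.98 to 3.18), and was lower under every scaling. eIF5A, which carries the modified amino acid hypusine and frees ribosomes stalled at proline runs, had the most abundant initiation-named gene of both libraries. Its main gene eif5a reached 2719 RPM with arsenate and 1445 RPM with water, a ratio of 1.88 (1.81 to 1.95), and ranked 52 among all genes with arsenate and 117 with water. The minor paralog eif5a2 stood at 269 versus 143 RPM, a ratio of 1.87 (1.67 to 2.11). Both missed the 2-fold rule by library total and passed it without the 10 most abundant genes.

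**Figure D3:**
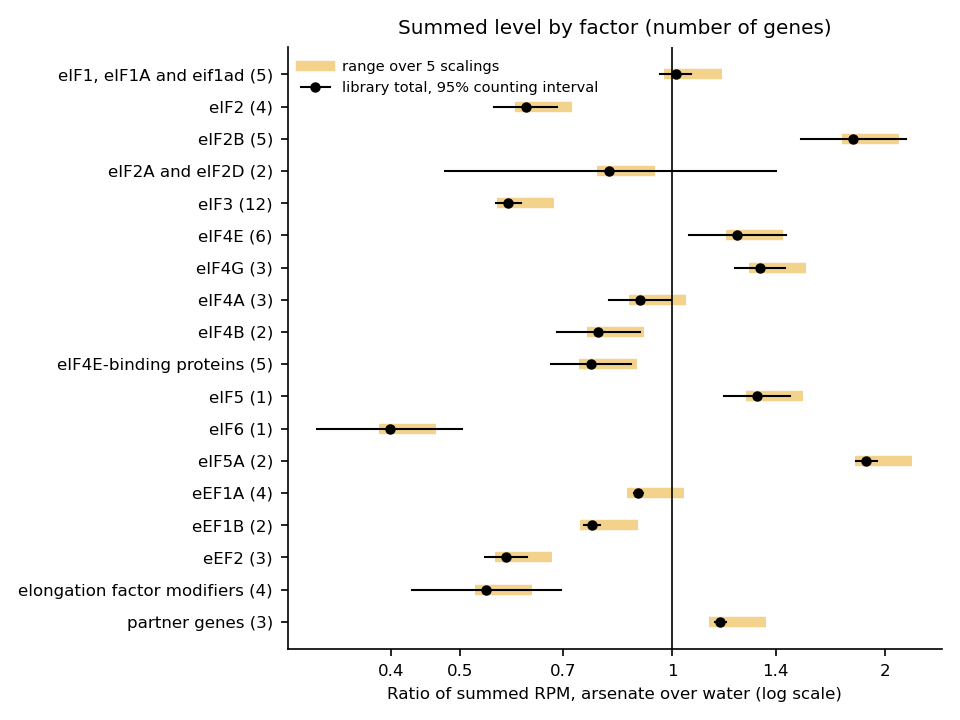
Ratio of summed RPM, arsenate over water, for each factor (log scale), with the number of genes in brackets. Points and thin lines are the ratio by library total with its 95% counting interval, and the pale bars span 5 scalings of the libraries. The bars of eIF5A and eIF2B lie wholly above 1, and those of eIF3, eIF2, eIF6 and eEF2 wholly below. The bars of eIF4A, of eEF1A and of the group of eIF1, eIF1A and eif1ad cross it. The single kinase gene eif2ak1 is left out.

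eEF1A, the most abundant elongation factor, kept a similar total level over its 4 matched genes, while the 2 main genes differed in opposite directions. The eef1a1l1 gene stood at 5381 RPM with arsenate and 9119 RPM with water, a ratio of 0.590 (0.580 to 0.601), and ranked 28 among all genes with arsenate and 14 with water. The eef1a1l2 gene stood at 3564 versus 877 RPM, 4.06-fold higher (3.89 to 4.25), and ranked 43 with arsenate and 160 with water. The remaining matched eEF1A genes were scarce. The eef1a1a gene had 6 tags against 8, and eef1a1b 4 tags against 1, a ratio of 2.35 with an interval of 0.232 to 116. All 4 matched genes together gave 8947 versus 9999 RPM, a ratio of 0.895 (0.881 to 0.909), without eef1a1l3 and eef1a2, which were not matched. The sum was above 1 in a single scaling, at 1.04 without the 10 most abundant genes, while eef1a1l1 stayed below 1 and eef1a1l2 above 3 in each of the 5 scalings.

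As a share of eEF1A tags, eef1a1l2 held 39.8% (39.3 to 40.3) with arsenate and 8.77% (8.43 to 9.12) with water. This share does not depend on how the libraries are scaled. The 2 genes lie next to each other on the chromosome, with 0 other genes between them in the RefSeq annotation of assembly GRCz12tu. They encode close copies of the same protein, and tags shared between them could have been split in the authors' mapping, so the values of each gene alone are uncertain.

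**Figure D4:**
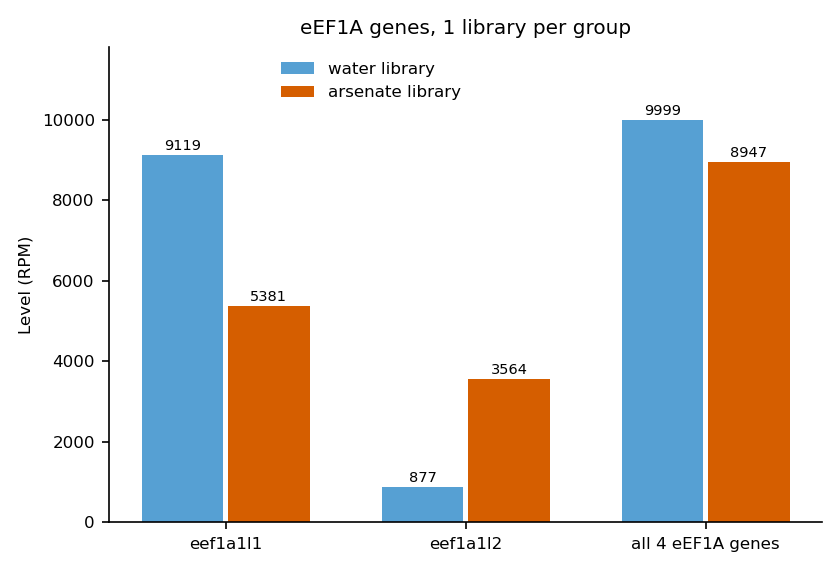
Level in RPM of eef1a1l1, eef1a1l2 and all 4 matched eEF1A genes together in the water and arsenate libraries. There was 1 library per group, so bars carry no error bar. The eef1a1l1 bar is lower and the eef1a1l2 bar higher in the arsenate library, and the summed bars stand at 9999 and 8947 RPM.

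The exchange factor eEF1B, which returns eEF1A to its GTP form, had no gene past the 2-fold rule, with both ratios below 1 under each of the 5 scalings. The catalytic subunit gene eef1b2 stood at 1100.0 versus 1550 RPM, a ratio of 0.710 (0.681 to 0.740), and the scaffold subunit gene eef1g at 1771 versus 2184 RPM, a ratio of 0.811 (0.784 to 0.839). The ratio of their sum was 0.769 and lay between 0.741 and 0.893 over the 5 scalings. Of the genes for the eEF2 translocase, the minor paralog alone passed the rule. The main gene eef2b had 1659 tags against 1655, or 375 versus 638 RPM, a ratio of 0.588 (0.549 to 0.630). The gene eef2a.1 had 7 tags against 25, 6.09-fold lower (2.56 to 16.7), and eef2a.2 had a single arsenate tag.

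The gene eef2k encodes the kinase that phosphorylates eEF2 and slows elongation. It stood at 5.88 versus 30.1 RPM, from 26 tags against 78, 5.12-fold lower (3.24 to 8.31). The genes for methyltransferases of the elongation factors were not distinguishable at this depth, with 85 tags against 58 for eef1akmt1 and 21 against 7 for eef2kmt, both with intervals that include 1.

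The partner genes were among the most abundant members. The tpt1 gene, for the translationally controlled tumour protein, stood at 6679 versus 5586 RPM, a ratio of 1.196 (1.17 to 1.22), and was the highest factor gene of the arsenate library. The poly(A)-binding protein gene pabpc1a, whose product joins the mRNA tail to eIF4G, stood at 316 versus 145 RPM, 2.19-fold higher (1.95 to 2.46), and was higher under every scaling. The btf3 gene, for the beta subunit of the nascent polypeptide-associated complex at the ribosome exit, stood at 527 versus 707 RPM, a ratio of 0.746 (0.702 to 0.794).

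Several factors are encoded by paralogs that arose by gene duplication, and the share of each paralog does not depend on library scaling. Beside eEF1A, shares with intervals that did not overlap were found for 6 of the other families drawn. The eif1axa gene held 4.58% of eIF1A tags (3.49 to 5.89) with arsenate and 16.5% (13.4 to 19.9) with water. The eif2s1b gene held 30.0% of eIF2 alpha tags (20.8 to 40.6) against 57.8% (48.2 to 66.9), and eif3hb 67.6% of subunit h tags (55.5 to 78.2) against 26.3% (13.4 to 43.1). The eif4a1a gene held 73.7% of eIF4A tags (70.9 to 76.4) against 54.0% (50.1 to 57.9), and eif4ebp3 45.9% (33.1 to 59.15) against 70.8% (60.7 to 79.7). The eif4g2a gene held 13.1% of eIF4G2 tags (11.6 to 14.7) against 9.07% (7.20 to 11.2). The intervals of eif1b and eif5a2 overlapped. Of the 3 families not drawn, the intervals of eIF4B paralogs overlapped, while eef2a.1 held 0.420% of eEF2 tags (0.169 to 0.863) against 1.49% (0.965 to 2.19), and eif4ea 6.09% of the tags of eif4ea, eif4eb and eif4e1c (3.81 to 9.15) against 0% (0 to 2.41). The eif5a2 gene held 8.99% of eIF5A tags (8.51 to 9.50) against 9.03% (8.17 to 9.95). Families were chosen after the values were seen, and tags of close paralogs may be shared. How often paralog families of other genes differ in this way was not computed, so these counts have no background. The 15.6% higher and 14.4% lower by the 2-fold rule, over all genes with at least 10 tags, describe levels of genes. They are not a background for paralog shares.

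**Figure D5:**
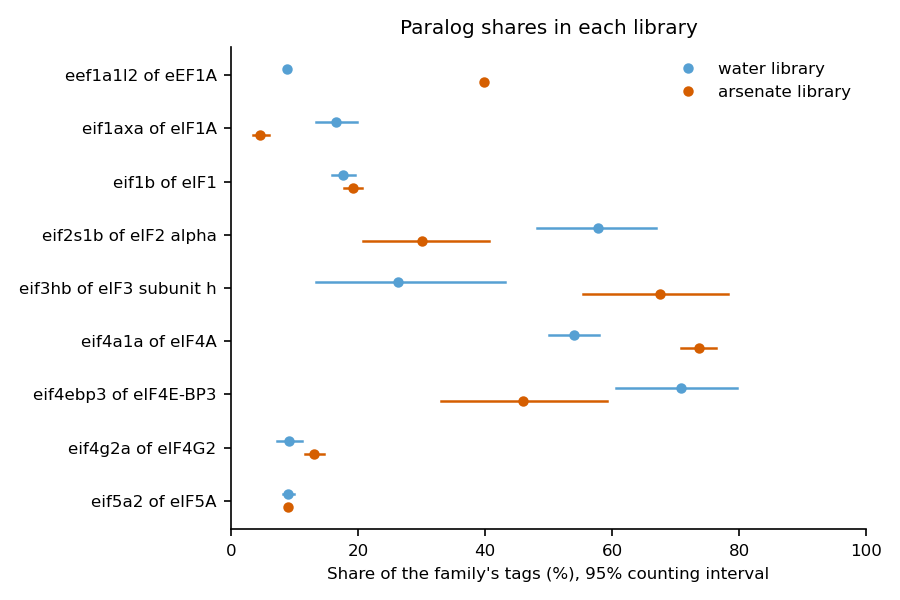
Share of a factor family's tags held by 1 named paralog in the water and arsenate libraries (percent), with exact 95% counting intervals. The eef1a1l2 share is 8.77% in the water library and 39.8% in the arsenate library, while the eif5a2 share is 9.03% and 8.99%.

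Other genes of translation were described from lists drawn up by function, with some earlier results of these data known. Against them stands the background of 15.6% higher, 14.4% lower and 52.0% with a ratio above 1 over all genes. Cytosolic aminoacyl-tRNA synthetases charge tRNA for elongation. Of 12 genes on their list with at least 10 tags, 3 were at least 2-fold higher, none lower and 11 had a ratio above 1. The median log2 ratio was 0.62. Those 12 include aimp1a, for a partner protein of the synthetases, with a ratio of 1.32. The lysine enzyme gene kars1 stood at 442 versus 351 RPM. The 3 genes higher were cars1 at 59.9 versus 20.8 RPM, 2.88-fold (2.14 to 3.93), wars1, 2.46-fold (1.59 to 3.93), and yars1, 2.02-fold (1.68 to 2.46), for cysteine, tryptophan and tyrosine. The yars1 gene passed the rule narrowly, at 2.005 on the RPM + 1 scale. Calls of list genes are given by library total only. Termination and recycling genes were 3 of 7 higher and none lower. The rescue factor gene pelo stood at 65.1 versus 16.97 RPM, 3.84-fold higher (2.79 to 5.40), the GTPase gene gtpbp1 was 5.84-fold higher (3.797 to 9.40), and mcts1, of a factor that recycles the small subunit, 3.19-fold higher (2.54 to 4.04). The release factor genes gspt1l and etf1b, with the most tags, had ratios of 0.637 (0.593 to 0.685) and 0.895 (0.764 to 1.05).

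Genes of the integrated stress response, the programme that follows eIF2 phosphorylation, did not share a direction. Of 10 with at least 10 tags, 1 was higher, 2 were lower and 7 were neither, with a median log2 ratio of 0.04. The transcription factor gene atf4b stood at 102 versus 130 RPM, a ratio of 0.783 (0.678 to 0.905), its paralog atf4a, named after its value was seen, at 52.7 versus 26.6 RPM, a ratio of 1.98 (1.51 to 2.63), and cebpb at 378 versus 375 RPM. The gene ppp1r15a, for the subunit that targets a phosphatase to eIF2 alpha, was at 52.0 versus 123 RPM, a ratio of 0.423 (0.355 to 0.503), and chac1, a glutathione-degrading target of the pathway, at 10.4 versus 28.9 RPM. The gene higher was impact, known in mammals as an inhibitor of the kinase GCN2, with 80 tags against 16.

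Of 9 genes for poly(A)-binding proteins and regulators of cap-dependent initiation, none were higher and 2 were lower. They were mknk2a, for a kinase of eIF4E, at 10.4 versus 230 RPM, and pabpc4, at 4.98 versus 30.5 RPM, a ratio of 0.163 (0.097 to 0.265), which is opposite in direction to pabpc1a. The helicase gene ddx3xa and paip2b, for a protein that binds poly(A)-binding protein, had ratios of 1.33 each. None of 7 mTOR pathway genes passed the rule, with mtor at 17.6 versus 15.0 RPM and the inhibitor gene deptor at 134 versus 244 RPM. Of 7 genes of nascent chain targeting, 1 was higher, the signal recognition particle gene srp9 with 72 tags against 18, and the translocon genes sec61a1a and sec61g had ratios of 0.650 and 1.76.

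Cytosolic ribosomal protein genes, the other large gene group of translation, had a median log2 ratio of -0.55, with 5 of 71 higher and 9 lower against the same background, and took 13.3% of arsenate tags and 18.7% of water tags. The factor genes took 2.64% and 2.69%, or 2.28% and 2.60% without eef1a1l2 but with its paralog eef1a1l1. With 1 library per group the difference between these groups was not tested.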

How the data were processed

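For each library the authors deposited 17991 transcripts with a column named TPM, read here as RPM: every deposited value is a whole multiple of the value of 1 tag (100% within 0.01 tags), and both columns have the same sum. The sources used here do not give the tag mapping, filters or genome build. Blanks were taken as 0 tags. RefSeq accessions matched a symbol for 9463 rows (assembly GRCz12tu, names only), holding 73.2% of arsenate and 81.3% of water tags. Rows of 1 symbol were summed, and each row with no symbol was kept as a gene of its own. No member had more than 1 row.

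With 1 library per group no test of the conditions exists. Calls used at least 10 tags, a pseudocount of 1 RPM and a ratio of at least 2 or at most 0.5. Medians used a prior count of 0.5. Intervals are Clopper-Pearson intervals of the share of a gene's tags that came from the arsenate library. An exact binomial test on recovered tags, with Benjamini-Hochberg adjustment at 0.05, compares the libraries only. Together with an RPM ratio of at least 2 or at most 0.5, it called 1084 of 7839 genes higher and 1065 lower. Genes within 2-fold were therefore not called, whatever their adjusted value. Named genes were the members past the rule, the 2 with most tags in each factor and all eEF1A genes, and in each list the 2 genes with most tags and up to 3 past the rule. Other members are named as a complement. The result of 1 list gene that this rule selects is left out. Members and lists were chosen with earlier results of these data known. Tools were edgeR 4.0.16 (TMM) and DESeq2 1.42.0 (size factors) in R 4.3.3, and Python 3.11.15 with scipy 1.17.1. The steps were run on simulated libraries with planted changes and counting error only. Those libraries hold no variation between fish or in tissue make-up, so they do not bear on that limit of the calls.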

Additional observations from a re-analysis of the deposited data

How the results depend on the processing

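No paired analysis was possible because each group has 1 library. Without replicates, variation between fish was not measured, and no alternative addresses it. Of 91 recomputed values, 62 kept their direction and stayed within 1.5 times for a count or within the interval for a value, 28 moved and 1 reversed. For the median log2 ratio of factor genes, that interval came from the spread over genes, which are not replicates, and not from counting error. All 9 recomputed medians fell within this wide interval, from -0.373 to -0.103 against -0.319. The reversed value was the summed eEF1A ratio, 1.04 without the 10 most abundant genes, against 0.895. It was 0.948 with TMM, 0.918 with median-of-ratios and 0.862 without pancreas and testis markers in the totals. The eef1a1l1 ratio was 0.625, 0.606, 0.685 and 0.569 with TMM, median-of-ratios, no 10 most abundant genes and no markers, and the eef1a1l2 ratio 4.31 with TMM and 4.72 without the 10 genes. Factor genes higher numbered 11 without the 10 most abundant genes. Stricter or looser rules moved counts by construction. With at least 50 tags, 713 genes were higher and 565 lower. With a pseudocount of 5 RPM they were 580 and 610, with 2 factor genes higher. At 1.5-fold there were 2176 higher and 1913 lower, with 14 and 23 factor genes, and at 4-fold 303 and 351, with 2 and 2. The exact test on tags, joined to a 2-fold limit on the RPM ratio, called 6 factor genes higher and 14 lower. These included all 6 and 12 genes called by the ratio of RPM + 1. Depth limits genes under about 100 tags, whose intervals span more than 2-fold.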
